A study of Mus musculus with 15 samples.

Results

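Classical cadherins hold neighbouring cells together, and catenins tie their tails to the actin skeleton. The members described here are the cadherin genes Cdh1, Cdh2, Cdh3, Cdh11 and Cdh16 and the catenin genes Ctnnb1, Ctnna1, Ctnnd1 and Jup. They were taken as every probe set whose single gene symbol is one of these names, which gave 9 genes of 18193 and 19 probe sets of 34945 with a single symbol. All 9 were measured in all 15 arrays.

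The arrays are Affymetrix mouse expression arrays of 5 lines with 3 arrays each. NMuMG is a wild-type, non-tumorigenic line of normal murine mammary gland cells. E1KD is NMuMG with hnRNP E1 silenced, and it is tumorigenic. M1P was isolated from an E1KD tumour of the mammary fat pad at passage 1. L1P came from the lungs of mice given E1KD cells in the fat pad (passage 1), and L2P came from the lungs of mice given L1P cells the same way (passage 2). The hosts were NOD/SCID mice, which lack functional T and B cells but keep their stromal and myeloid cells, and host RNA is mouse RNA like that of the lines. All lines were then grown in the same serum-containing medium. M1P, L1P and L2P all carry the silencing of hnRNP E1 that E1KD carries, to differing degrees (given below). No line with a control silencing construct was analysed here, so silencing cannot be told apart from other differences between NMuMG and E1KD. Each line is 1 line, and nothing in the labels tells whether its 3 arrays are separate cultures. The p-values therefore reflect spread between arrays that may be technical only.

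Cadherins on facing cells bind each other through their outer domains in a calcium-dependent way. Inside the cell, p120-catenin (Ctnnd1) binds near the membrane and keeps the cadherin at the surface. Beta-catenin (Ctnnb1) or its close relative plakoglobin (Jup) binds further along the tail and recruits alpha-E-catenin (Ctnna1), which binds actin. Beta-catenin also acts in the nucleus with TCF factors as the effector of Wnt signalling. E-cadherin (Cdh1) is the main cadherin of mammary luminal epithelium, P-cadherin (Cdh3) marks the basal layer there, and N-cadherin (Cdh2) and cadherin-11 (Cdh11) are typical of mesenchymal cells. A fall of E-cadherin with a rise of N-cadherin is the textbook cadherin switch of the epithelial-mesenchymal transition. Cadherin-16 (Cdh16) is a kidney cadherin with a short tail that lacks the catenin-binding region.

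Values are log2 signals, so a difference of 1 is a factor of 2. An error after a level is the SD of a line's 3 arrays (n = 3), and an error after a difference is its standard error. Adjusted p-values are from limma with Benjamini-Hochberg adjustment over all 18193 genes, and "rose" or "fell" means an adjusted p under 0.05. A probe set's brightness depends on its sequence, so differences were tested between lines and not between genes. Bright and dim describe where a signal lies on the scale of the arrays, and do not rank genes by their RNA amount.

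The targeted gene matched the labels. Pcbp1, which encodes hnRNP E1, lay between 12.57 and 12.76 in the NMuMG arrays and between 7.95 and 10.09 in the 12 arrays of silenced lines. Arrays within a line correlated at 0.98 or more over all probe sets except in M1P, where r was 0.93 to 0.98. Which M1P array stood apart depended on the gene. The upper quartile of array 1 was 6.33, against 6.64 and 6.67 in arrays 2 and 3. For Afdn array 1 (6.48) lay apart from arrays 2 and 3 (8.81 and 8.88). For Jup arrays 1 and 2 (8.57 and 8.28) lay apart from array 3 (6.87). Calls that involve M1P are given with all arrays and with array 3 alone. A single array gives no spread of its own, so a call lost there does not show that the difference was absent. Keratin markers of simple epithelium were bright in every array (Krt8 from 13.63 to 14.22, Krt18 from 13.42 to 14.11), while the epithelial markers Epcam (4.95 to 5.80) and Cldn7 (3.00 to 3.74) were dim in all lines, NMuMG included. The mean of the 8 fibroblast markers was 3.41 to 3.72 in the arrays of the other lines and 3.62 to 4.29 in M1P, and that of the 6 endothelial markers lay between 2.95 and 3.40 in all arrays. The mean of the 6 measured leukocyte markers was 4.89 to 5.57, with Ptprc (2.24 to 2.72) dim and Cd14 (9.43 to 11.10) bright in every array. Of these 3 lists, Col1a2 and Kdr rose in M1P against E1KD (1.09 and 0.57), and did not pass with array 3 alone (0.39 and 0.38). In L2P against NMuMG Cd68 rose (1.17), and Cd14 (-1.05) and Pdgfra (-0.49) fell.

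Silencing of hnRNP E1 was accompanied by a large fall of Cdh16 and a rise of Cdh2, with no fall of Cdh1 detected. In E1KD against NMuMG, 2 of the 9 members passed, 1 in each direction, where 9.49% of all genes passed. The median difference of the 9 was -0.03, and that of all genes was -0.07. Without adjustment 3 members had a p under 0.05. For 3 members the arrays of E1KD and NMuMG did not overlap, which was so for 36% of all genes. The mean of 8 mammary epithelial markers moved in the same comparison, from 8.91 to 9.06 in the NMuMG arrays to 7.93 to 8.11 in E1KD. Of those markers Krt7 fell by 5.46 and Elf3 by 1.17, and 6 did not pass. The median difference of the 8 markers was -0.30, and 1 of them was higher in E1KD. The part of these markers in the values of the 9 members was not tested.

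After passage in mice, few of the 9 moved further. In L1P against E1KD Cdh16 fell and the other 8 did not pass (2.48% of all genes passed). In L2P against E1KD Cdh16 again was the member that fell, and 8 did not pass (3.78% of all genes). These comparisons share the E1KD arrays. Between L2P and L1P none of the 9 passed in limma's test and none had an unadjusted p under 0.05, and 0.143% of all genes passed. In L2P against NMuMG, Cdh16 fell and 8 members did not pass, against 14.2% of all genes passing. Over the 5 lines together, limma's F test called 2 of 9 members, Cdh2 (adjusted p = 0.0133) and Cdh16 (adjusted p = 4.07e-09), where 31.8% of all genes were called.

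M1P differed from E1KD in 2 members, with Jup higher and Cdh2 lower, where 27.6% of all genes passed. The median difference of the 9 was -0.30 and that of all genes 0.20. With M1P represented by array 3 alone, which assumes that this array varies like those of the other lines, 0 of the 9 passed in limma, where 4.45% of all genes did.

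**Figure D1:**
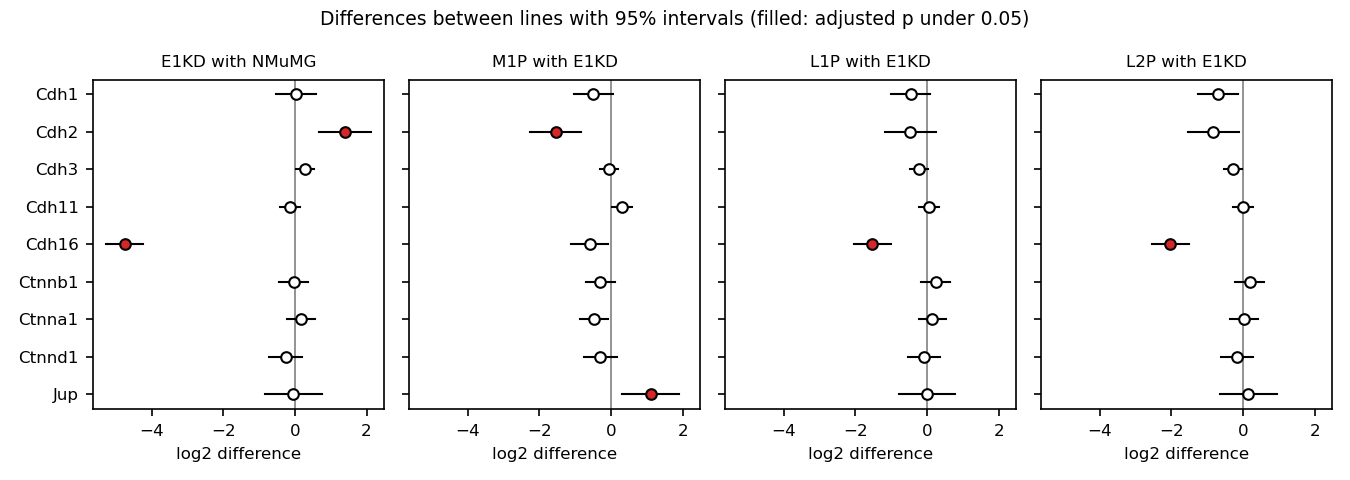
Log2 difference of each of the 9 genes (rows) for E1KD with NMuMG and for M1P, L1P and L2P with E1KD (panels), with 95% intervals as bars, 3 arrays per line. Filled points have an adjusted p under 0.05; Cdh16 lies far below 0 for E1KD with NMuMG (-4.75), and most intervals of the other genes cross 0.

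Cdh16 showed the widest range of the 9. Its signal was 10.95, 11.04 and 10.32 in the NMuMG arrays, 6.33, 5.80 and 5.93 in E1KD, and 5.95, 5.16 and 5.19 in M1P. It was 4.55, 4.31 and 4.61 in L1P and 4.16, 3.77 and 4.02 in L2P. The NMuMG arrays thus lay far above all 12 arrays of the silenced lines, and the lung lines lay below all arrays of E1KD and M1P. The L2P level was at or below the array medians of 4.17 to 4.26, in the dim part of the scale where differences are compressed.

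Cdh16 fell by 4.75 ± 0.24 on the log2 scale from NMuMG to E1KD, a 26.9-fold difference (adjusted p = 4.01e-08, limma). Against E1KD it was 1.53 ± 0.24 lower in L1P, a difference that is 2.89-fold (adjusted p = 0.00283, limma). In L2P it was 4.11-fold lower than in E1KD (log2 difference -2.04 ± 0.24, adjusted p = 0.000214, limma). From NMuMG to L2P the log2 difference was -6.79 ± 0.24, or 111-fold (adjusted p = 1.21e-09, limma). The order of the line means was NMuMG, E1KD, M1P, L1P and L2P.

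Not every step in that order held up. M1P lay below E1KD by 0.59 ± 0.24 with overlapping arrays (adjusted p = 0.0778, limma), or by 0.83 with M1P array 3 alone (adjusted p = 0.114). L1P fell below M1P (-0.94, adjusted p = 0.0129), but with array 3 alone the difference was -0.70 (adjusted p = 0.15). L2P fell below M1P (-1.45, adjusted p = 0.00202), and also with array 3 alone (-1.20, adjusted p = 0.0272). L2P lay below L1P in all arrays, by 0.51 ± 0.24 (unadjusted p = 0.0543, adjusted p = 1, limma).

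Cdh2 was highest in E1KD. Its signal was 9.10, 9.28 and 9.08 in NMuMG and 10.61, 10.37 and 10.67 in E1KD. M1P gave 8.16, 9.56 and 9.29, L1P 10.35, 9.42 and 10.49, and L2P 9.45, 9.998 and 9.73. The E1KD arrays did not overlap those of NMuMG, M1P or L2P, whereas 1 L1P array reached the range of E1KD. Of all genes, 36% were separated in this way between E1KD and NMuMG, 40.2% between M1P and E1KD, and 20% between L2P and E1KD.

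Cdh2 rose 2.64-fold from NMuMG to E1KD (log2 difference 1.40 ± 0.33, adjusted p = 0.0163, limma). The call was lost when NMuMG array 1 or 3 was left out (adjusted p = 0.058 and 0.0582) and when E1KD array 1 or 3 was left out (0.0556 and 0.0611). The difference itself stayed between 1.34 and 1.49 in all 18 alternative settings. The second Cdh2 probe set showed a like rise, with 8.69, 8.84 and 8.49 in NMuMG and 10.04, 9.87 and 10.08 in E1KD. Tested over all single-symbol probe sets, it rose by 1.32 ± 0.24 (adjusted p = 0.00381, limma, where 7.78% of probe sets passed).

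The higher Cdh2 level was not uniform across the later lines. In M1P it fell 2.92-fold below E1KD (log2 difference -1.55 ± 0.33, adjusted p = 0.00898, limma), to a mean of 9.0 ± 0.74 that lay 0.15 below NMuMG (adjusted p = 0.787), or 0.13 above it with array 3 alone. With M1P array 3 alone the difference from E1KD was -1.27 (adjusted p = 0.0538). In the lung lines the means were 10.09 ± 0.58 (L1P) and 9.73 ± 0.27 (L2P), between NMuMG and E1KD. All 6 arrays lay above those of NMuMG in the main probe set, and the share of all genes separated in this way was not counted. In the second probe set L1P array 2 (8.73) lay below NMuMG array 2 (8.84). For the main probe set the differences from NMuMG were 0.93 for L1P (adjusted p = 0.0798) and 0.57 for L2P (adjusted p = 0.308). Leaving the M1P arrays out of the model gave an adjusted p of 0.012 for L1P and 0.104 for L2P. Against E1KD, the difference was -0.47 for L1P (adjusted p = 0.821) and -0.83 ± 0.33 for L2P (adjusted p = 0.296). L1P rose above M1P (1.08, adjusted p = 0.025), although 1 L1P array lay within the M1P range and array 3 alone gave 0.80 (adjusted p = 0.168). That call was also lost without M1P array 1 (0.66, adjusted p = 0.0955) and without L1P array 1 or 3 (adjusted p = 0.073 and 0.101).

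Cdh1 was bright in every line. The arrays gave 10.97, 11.58 and 10.88 in NMuMG and 11.00, 11.13 and 11.38 in E1KD, which overlapped fully. M1P gave 10.64, 11.24 and 10.15, L1P 10.60, 11.06 and 10.46, and L2P 10.45, 10.51 and 10.46. All 3 L2P arrays lay below every NMuMG and E1KD array. Arrays of L2P and E1KD did not overlap for 20% of all genes.

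The E1KD level of Cdh1 differed from NMuMG by 0.03 ± 0.26, with a 95% interval from -0.53 to 0.58 (adjusted p = 0.969, limma). None of the 18 alternative settings gave a call, and their differences ran from -0.10 to 0.25. The rise of Cdh2 in E1KD thus came without a detected fall of Cdh1, within the limits of that interval.

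In L2P Cdh1 was lower than in NMuMG by 0.67, with a 95% interval from -1.22 to -0.11, and did not pass (adjusted p = 0.112, limma). It passed in 4 of 18 alternative settings, 1 of them with the M1P arrays left out of the model (adjusted p = 0.0257). Against E1KD the L2P difference was -0.69, with an interval from -1.25 to -0.14 (unadjusted p = 0.018, adjusted p = 0.231). That difference passed in 2 of 18 alternative settings. For L1P against E1KD the difference was -0.46, from -1.01 to 0.09 (adjusted p = 0.652). For M1P against E1KD it was -0.49, from -1.05 to 0.06 (adjusted p = 0.149), and -1.01 with array 3 alone (adjusted p = 0.0585). Against NMuMG, M1P differed by -0.46 (adjusted p = 0.251), or by -0.99 with array 3 alone, which passed (adjusted p = 0.0482).

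**Figure D2:**
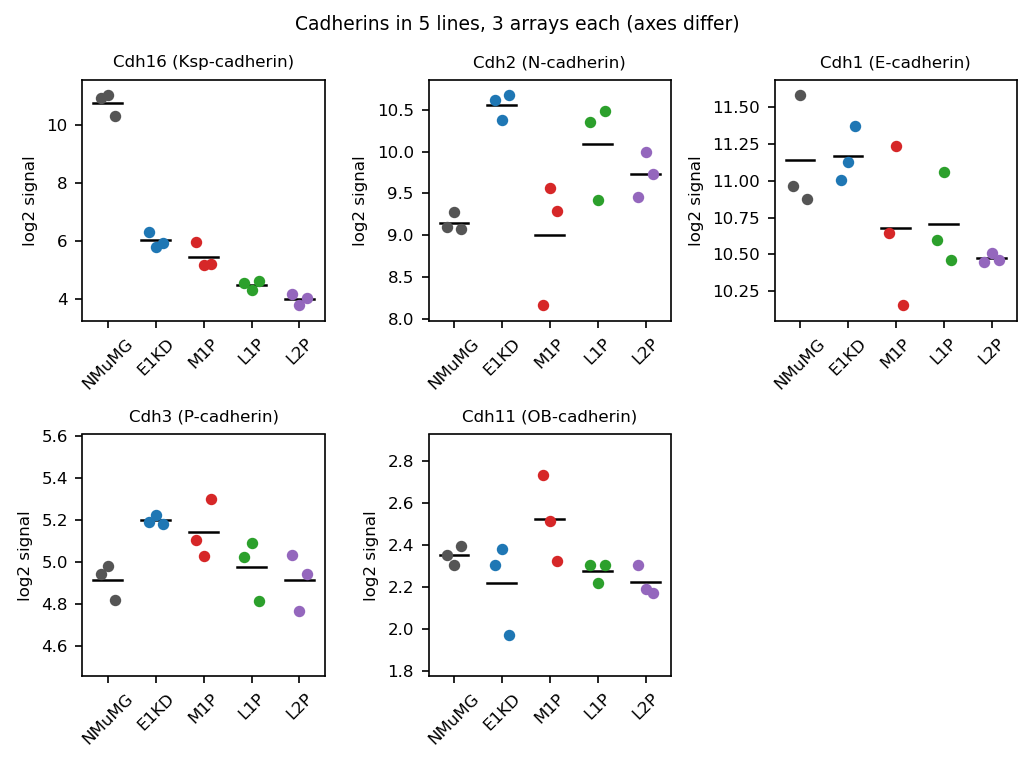
Log2 signal of the 5 cadherins (panels, whose vertical axes differ) in the 5 lines; each dot is 1 array and each bar the mean of 3. Cdh16 falls from above 10 in NMuMG to about the array median in L2P, Cdh2 is highest in E1KD, and the L2P arrays of Cdh1 lie between 10.45 and 10.51, below those of NMuMG.

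The other classical cadherins were dim and moved little. Cdh3 had signals of 4.94, 4.98 and 4.82 in NMuMG and 5.19, 5.22 and 5.18 in E1KD. These arrays did not overlap, yet the difference of 0.28 ± 0.12 did not pass (adjusted p = 0.171, limma). Its line means were 5.14 ± 0.14 in M1P, 4.98 ± 0.15 in L1P and 4.91 ± 0.14 in L2P. All arrays of both lung lines lay below those of E1KD, with differences of -0.22 (adjusted p = 0.605) and -0.28 (adjusted p = 0.312). Arrays did not overlap with E1KD for 23.8% of all genes in L1P and 20% in L2P.

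Cdh11 lay between 1.97 and 2.73 in all 15 arrays, near the lowest value of the whole table (1.53). Its line means were 2.35 ± 0.05 (NMuMG), 2.22 ± 0.22 (E1KD), 2.53 ± 0.20 (M1P), 2.28 ± 0.05 (L1P) and 2.22 ± 0.07 (L2P), so no line had a level clear of the dim end. The M1P difference from E1KD was 0.31 ± 0.13 (adjusted p = 0.0867, limma), or 0.11 with array 3 alone (adjusted p = 0.778). Of the 8 fibroblast markers 1 rose in M1P against E1KD, Col1a2 (1.09, or 0.39 with array 3 alone, adjusted p = 0.202). Their part in the Cdh11 values was not tested.

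The cells had bright beta- and alpha-E-catenin signals in all lines. Ctnnb1 was 13.12, 13.51 and 13.39 in NMuMG and 13.07, 13.42 and 13.43 in E1KD. It was 12.52, 13.38 and 13.12 in M1P, 13.50, 13.59 and 13.55 in L1P, and 13.48, 13.44 and 13.55 in L2P. Except for M1P array 1, every array lay between 13.07 and 13.59, near the highest value of the table (14.68).

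In the main probe set the difference of Ctnnb1 between E1KD and NMuMG was -0.03, with a 95% interval from -0.44 to 0.37 (adjusted p = 0.948, limma). Both lung lines lay above all E1KD arrays, by 0.24 in L1P (adjusted p = 0.874) and 0.18 in L2P (adjusted p = 0.943). Such separation was seen for 23.8% of all genes in L1P and 20% in L2P. M1P lay 0.30 below E1KD (adjusted p = 0.216), or 0.19 with array 3 alone (adjusted p = 0.609). L1P rose above M1P (0.54 ± 0.19, adjusted p = 0.0386), but not with array 3 alone (0.43, adjusted p = 0.168), nor without M1P array 1 (0.30, adjusted p = 0.158) or any one L1P array (0.0697, 0.0886 and 0.0992).

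Ctnna1, the actin-binding link, was 11.80, 12.19 and 12.00 in NMuMG and 12.13, 12.08 and 12.30 in E1KD. M1P gave 11.21, 12.05 and 11.83, L1P 12.38, 12.28 and 12.31, and L2P 12.11, 12.25 and 12.25. The E1KD arrays overlapped those of NMuMG, and the difference was 0.17, from -0.22 to 0.56 (adjusted p = 0.647, limma). A far dimmer Ctnna1 probe set, with line means of 3.50 ± 0.77 in NMuMG and 4.54 ± 1.16 in E1KD, gave 1.04 (adjusted p = 0.381). All M1P arrays lay below those of E1KD (as for 40.2% of all genes), by 0.47 ± 0.18 (adjusted p = 0.0657), or 0.34 with array 3 alone (adjusted p = 0.275). The M1P difference passed with the mean of all Ctnna1 probe sets (-0.61, adjusted p = 0.0289) and after quantile normalization (-0.52, adjusted p = 0.0492), and was -1.44 in the dimmer probe set (adjusted p = 0.0965). L1P rose above M1P by 0.62 ± 0.18 (adjusted p = 0.0207), and the array 3 value was 0.49 (adjusted p = 0.0969). The dimmer probe set gave 1.76 (adjusted p = 0.0437). Without M1P array 1 the main one gave 0.38 (adjusted p = 0.0641), and the call was also lost without L1P array 1 or 3 (adjusted p = 0.0546 and 0.063).

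Ctnnd1 was 8.29, 8.76 and 8.51 in NMuMG, 8.27, 8.21 and 8.29 in E1KD, and 7.56, 8.47 and 7.87 in M1P. It was 8.24, 8.32 and 8.0 in L1P and 8.36, 7.99 and 7.92 in L2P. The 5 lines overlapped in this gene, with line means from 7.96 in M1P to 8.52 in NMuMG. The difference between E1KD and NMuMG was -0.26, from -0.71 to 0.19 (adjusted p = 0.532, limma). None of the 10 pairwise comparisons of lines called Ctnnd1. In the largest, M1P lay 0.56 below NMuMG (adjusted p = 0.103), or 0.65 with array 3 alone (adjusted p = 0.0906).

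Jup was the catenin that rose in M1P, and its rise rested on M1P arrays 1 and 2. Plakoglobin can take the place of beta-catenin at cadherins and also sits in desmosomes. Its signal was 6.80, 7.29 and 6.41 in NMuMG and 6.71, 6.46 and 7.20 in E1KD. It was 8.57, 8.28 and 6.87 in M1P, 6.74, 6.92 and 6.71 in L1P, and 7.20, 6.68 and 6.93 in L2P. M1P arrays 1 and 2 lay above every other array, and array 3 lay within the E1KD range.

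The M1P level of Jup was 2.17-fold that of E1KD (log2 difference 1.12 ± 0.37, adjusted p = 0.0409, limma). With array 3 alone it was 0.08 (adjusted p = 0.934), and the call was also lost without M1P array 1 (adjusted p = 0.17), without array 2 (0.101) or without any one E1KD array (0.0862, 0.144 and 0.052). Jup fell from M1P to L1P by 1.12 (adjusted p = 0.0322), where array 3 alone gave a difference of -0.08 (adjusted p = 0.91). Among the other lines the means lay between 6.79 and 6.94. The E1KD difference from NMuMG was -0.04, from -0.83 to 0.75 (adjusted p = 0.969).

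**Figure D3:**
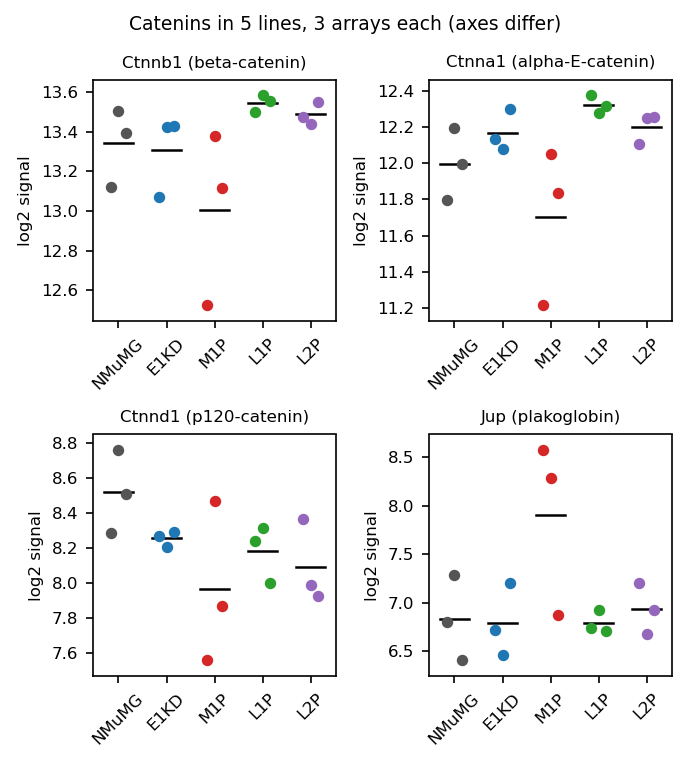
Log2 signal of the 4 catenins (panels, whose vertical axes differ) in the 5 lines; each dot is 1 array and each bar the mean of 3. M1P array 1 is the lowest array for Ctnnb1, Ctnna1 and Ctnnd1, and M1P arrays 1 and 2 of Jup (8.57 and 8.28) lie above the other 13 arrays.

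The pairwise comparisons not yet counted were read from the same model. M1P against NMuMG had 1 member lower, Cdh16 (-5.34, and -5.59 with array 3 alone), and 8 that did not pass, where 11.8% of all genes passed. L1P against NMuMG likewise had 1 lower, Cdh16, where 14.8% passed. L1P against M1P had 3 members higher (Cdh2, Ctnnb1, Ctnna1) and 2 lower (Cdh16, Jup), where 39.5% of all genes passed. L2P against M1P had Cdh16 lower and 8 that did not pass, where 30.4% passed.

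Several genes had more than 1 probe set, and these did not always move together. Over the 15 arrays, the second probe set correlated with the main one at r = 0.91 for Cdh2, 0.70 for Cdh11 and 0.50 for Cdh3. For Ctnnb1 the other probe sets gave 0.94 and 0.87. For Ctnna1 they gave 0.97, 0.44 and -0.52, and for Ctnnd1 0.89 and -0.20. Arrays of a line are part of what these correlations rest on, so they are descriptions.

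Tested over all single-symbol probe sets for M1P against E1KD (23.5% passed), the second Cdh2 probe set fell by 1.06 ± 0.24 (adjusted p = 0.0128, limma), and array 3 alone gave -0.91 (adjusted p = 0.15). The Ctnna1 probe set that followed the main one at 0.97 fell by 0.63 ± 0.21 (adjusted p = 0.0454), where the main Ctnna1 probe set did not pass, and array 3 alone gave -0.44 (adjusted p = 0.122). The Ctnnd1 probe set that correlated at -0.20 with the main one fell by 0.51 ± 0.15 (adjusted p = 0.0314), and array 3 alone gave -0.56 (adjusted p = 0.178). With array 3 alone 2.82% of all probe sets passed.

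The members did not form 1 pattern over the 15 arrays. Ctnnb1 and Ctnna1 followed each other most closely (r = 0.91), and Cdh2 correlated with Ctnna1 at 0.77 and Cdh1 with Ctnnd1 at 0.70. M1P array 1 was the lowest of the 15 arrays for Ctnnb1, Ctnna1 and Cdh2, and correlations between members were not computed without it. Cdh1 and Cdh2 were nearly unrelated (r = 0.12), and Cdh1 and Cdh16 correlated at 0.52. Among all other genes, Lamb3 (a laminin chain of the basement membrane), Porcn (which acylates Wnt proteins) and Syce2 were most like Cdh16, each with r = 0.98. Lamb3 went from a mean of 10.04 in NMuMG to 6.95 in E1KD and 5.86 in L2P. Syce2, a synaptonemal complex gene, went from 8.65 to 4.69 and 4.16. The genes most like Cdh2 were Prkx (r = 0.96), Msn and E2f3 (both 0.94), and those most like Cdh1 were Magef1 (0.91), Rfx5 and Acadl (both 0.89). Arhgef17, Plxnb2 and Slc49a4 were most like Jup (each r = 0.96, or 0.76 to 0.77 without M1P arrays 1 and 2). For Cdh3 the genes were Tuba1a (0.82), Psmd2 and Eva1a (both 0.79). For Cdh11 they were Stk31, A230070E04Rik (both 0.93) and Igsf1 (0.92), or 0.79 to 0.82 without M1P arrays 1 and 2. Ctnnb1 was followed most closely by Pigh, Iars2 and Ets1 (0.94 to 0.95, or 0.83 to 0.91 without those 2 arrays). Ctnna1 was followed by Yy1 (0.98), Yeats2 and C2cd5 (both 0.97), and Ctnnd1 by Cpne1 (0.93), Net1 and Gpam (both 0.92).

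Among the 16 measured of 18 other cadherins, none passed in E1KD against NMuMG (median difference -0.02, and -0.07 over all genes). The later lines differed from E1KD in Cdh17, which encodes an intestinal cadherin whose short tail, like that of Cdh16, does not bind catenins. Its signal was 8.71, 8.99 and 9.04 in NMuMG and 9.24, 9.01 and 9.24 in E1KD. It was 6.33, 7.44 and 8.86 in M1P, 6.10, 6.14 and 5.82 in L1P, and 6.05, 6.0 and 6.13 in L2P. Both lung lines thus lay below every array of the other lines, and the M1P arrays spanned most of the range between.

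Cdh17 was 8.84-fold lower in L1P than in E1KD (log2 difference -3.14 ± 0.42, adjusted p = 0.000923, limma). In L2P it was 8.58-fold lower than in E1KD (-3.10 ± 0.42, adjusted p = 0.00073). Both calls held in all 18 alternative settings. In M1P it fell by 1.62 ± 0.42 (adjusted p = 0.0191), but array 3 alone gave -0.31 (adjusted p = 0.369), and the call was lost without E1KD array 2 or 3 (adjusted p = 0.0601 and 0.0534).

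Cdh13, the cadherin held in the membrane by a lipid anchor, also fell in both lung lines against E1KD. The differences were -0.81 ± 0.18 in L1P (adjusted p = 0.0326, limma) and -0.75 in L2P (adjusted p = 0.0387), and each call held in 11 of 18 alternative settings. It was lost in L1P without E1KD array 1 or 2 (adjusted p = 0.134 and 0.144) or any one L1P array (0.0861, 0.132 and 0.118). In L2P it was lost without E1KD array 1 or 2 (0.148 and 0.165) or L2P array 2 or 3 (0.165 and 0.18), and the mean of the Cdh13 probe sets gave -0.32 in L1P and -0.31 in L2P. In M1P against E1KD, 3 of the 16 other cadherins rose (Cdh4 0.61, Cdh20 0.48, Cdh15 0.45) and 2 fell, Cdh17 and Cdh6, where 27.6% of all genes passed. Cdh6, a kidney and neural cadherin, fell by 2.52 ± 0.55 (adjusted p = 0.00985). With array 3 alone none of these passed (Cdh4 0.64, Cdh20 0.41, Cdh15 0.26), and Cdh6 differed by -1.40 (adjusted p = 0.168). Its call was also lost without E1KD array 2 (adjusted p = 0.0511).

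Desmosomes, the junctions in which plakoglobin joins desmosomal cadherins to desmoplakin and keratin, showed no call among 9 of 10 measured genes in E1KD against NMuMG (median -0.17). In M1P against E1KD, Dsc2 (0.60) and Pkp1 (0.46) rose and Dsp fell by 1.26, where 27.6% of all genes passed. With array 3 alone the differences were 0.54 for Dsc2, 0.35 for Pkp1 and -0.996 for Dsp. In L2P against NMuMG, Pkp2 (-0.92), Pkp3 (-1.10) and Dsc3 (-0.51) fell, where 14.2% of all genes passed. Each of these calls was lost without NMuMG array 1 or 3 or L2P array 2 or 3, and those of Pkp2 and Dsc3 also without NMuMG array 2 (adjusted p up to 0.136 for Dsc3). None of the 9 passed in either lung line against E1KD.

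Among 8 other catenins and catenin partners, the inhibitor gene Ctnnbip1, whose product blocks the binding of beta-catenin to TCF factors, fell in E1KD. It was 7.27, 7.02 and 6.84 in NMuMG and 4.98, 4.50 and 5.29 in E1KD. It was 6.83, 5.86 and 5.42 in M1P, 5.35, 5.10 and 5.11 in L1P, and 5.47, 5.05 and 5.08 in L2P. All 12 arrays of silenced lines lay below those of NMuMG, though M1P array 1 lay only just below. Ctnnbip1 fell by 2.12 ± 0.30 from NMuMG to E1KD (adjusted p = 0.000469, limma) and by 1.84 from NMuMG to L2P (adjusted p = 0.000862). It rose by 1.12 from E1KD to M1P, and array 3 alone gave 0.50 (adjusted p = 0.328). Zbtb33, which encodes the p120-catenin partner Kaiso, fell in M1P against E1KD (-2.39), and array 3 alone gave -0.17 (adjusted p = 0.931).

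Of 14 nectin, afadin and actin-linking genes, 1 rose and 1 fell in E1KD, where 9.49% of all genes passed (median 0.10, and -0.07 over all genes). Vcl, which encodes vinculin, the protein that alpha-catenin recruits under tension, rose by 0.97 ± 0.26 (adjusted p = 0.0331, limma). Its arrays lay between 9.89 and 10.19 in NMuMG and between 10.99 and 11.06 in E1KD. The call was lost when any one array of either line was left out (adjusted p from 0.0688 to 0.121), and the mean of the Vcl probe sets gave 0.55 (adjusted p = 0.0789). Vezt, which encodes a myosin-binding junction protein, fell by 0.57 (adjusted p = 0.0484), but its most variable probe set differed by 0.57 the other way (adjusted p = 0.272). The Vezt call was also lost without any one NMuMG array or E1KD array 2 or 3 (adjusted p from 0.115 to 0.176).

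In M1P against E1KD, 2 of these 14 rose and 5 fell, where 27.6% of all genes passed. Actn4 (0.64) and Nectin4 (0.44) rose. The 4 largest falls were of Enah (-2.00), Afdn, which encodes the nectin-binding afadin (-1.98), Tjp1 (-1.55) and Vcl (-1.29). With array 3 alone 3 of the 14 passed, Enah (-1.68), Vcl (-1.17) and Afdn (-1.16), where 4.45% of all genes did. The array 3 differences were 0.36 for Actn4, 0.26 for Nectin4 and -0.69 for Tjp1. None of the 14 passed in L1P or L2P against E1KD.

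**Figure D4:**
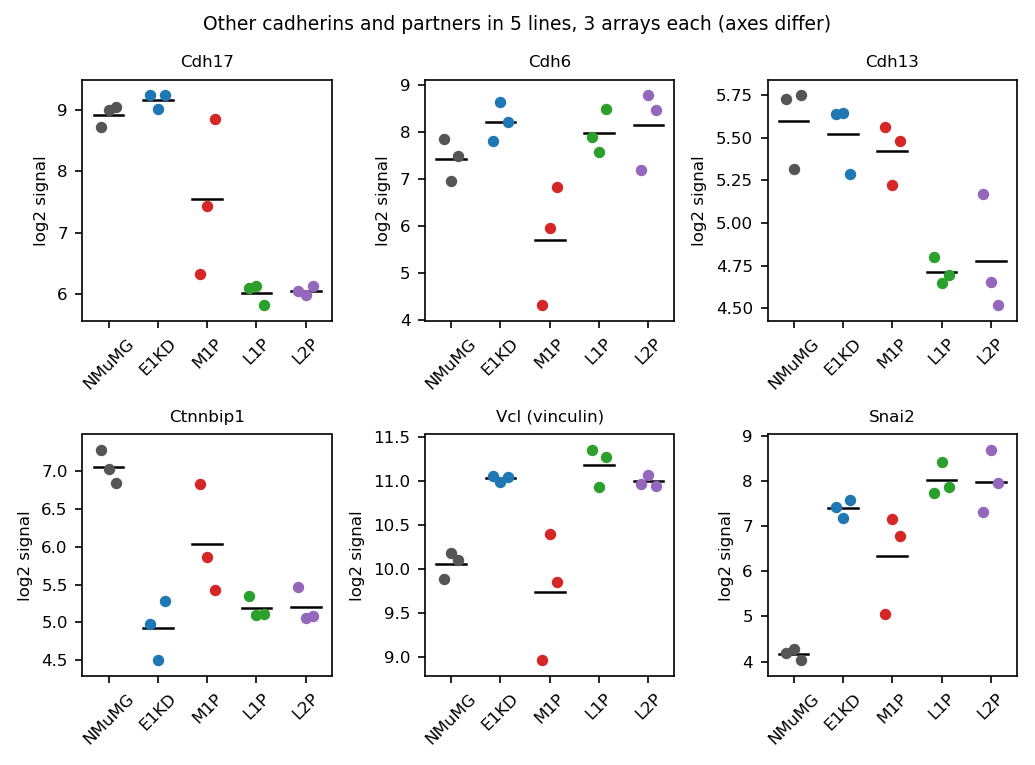
Log2 signal of Cdh17, Cdh6, Cdh13, Ctnnbip1, Vcl and Snai2 (panels, whose vertical axes differ) in the 5 lines; each dot is 1 array and each bar the mean of 3. Cdh17 and Cdh13 are lower in L1P and L2P than in E1KD, Ctnnbip1 is lower and Snai2 higher in E1KD than in NMuMG, and M1P arrays are widely spread.

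Of the larger cadherin relatives (FAT, CELSR, Dachsous and non-clustered protocadherins), 14 of 15 were measured. In E1KD 1 rose and 2 fell, where 9.49% of all genes passed. Pcdh7 rose by 2.42 ± 0.45 (adjusted p = 0.00376, limma), or by 1.07 as the mean of its probe sets (adjusted p = 0.0133), and Celsr2, a planar polarity cadherin, fell by 0.85. The Celsr2 call was lost without NMuMG array 2 or 3 or any one E1KD array (adjusted p from 0.0525 to 0.137). Pcdh10 fell by 0.50 (adjusted p = 0.0486), a call lost without any one NMuMG array or E1KD array 1 or 2. In L2P against E1KD, Pcdh9 rose by 0.85 (adjusted p = 0.0456), and the call was lost without any one E1KD array or L2P array 2 or 3. In M1P against E1KD the giant cadherin gene Fat1 fell by 1.12 (adjusted p = 0.0374), and array 3 alone gave -1.36 (adjusted p = 0.0716).

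Among 8 transcriptional repressors of Cdh1, Snai2 (Slug) rose in E1KD and the other 7 did not pass, where 9.49% of all genes passed. Snai2 was 4.19, 4.27 and 4.03 in NMuMG and 7.42, 7.18 and 7.59 in E1KD, a log2 difference of 3.23 ± 0.45 (adjusted p = 0.000455, limma). It was 5.06, 7.15 and 6.78 in M1P, 7.73, 8.43 and 7.88 in L1P, and 7.31, 8.68 and 7.96 in L2P. Every array of a silenced line lay above those of NMuMG, while Cdh1 in the same arrays of E1KD lay within the NMuMG range. Twist2 rose by 1.71 ± 0.27 in L2P against E1KD (adjusted p = 0.00217). From E1KD to M1P Twist2 rose (1.49) and Tcf4 (-2.70), Zeb2 (-2.13) and Zeb1 (-1.87) fell, where 27.6% of all genes passed. With array 3 alone none of the 8 passed, and the differences were 1.10 for Twist2, -1.53 for Tcf4, -0.33 for Zeb2 and -0.53 for Zeb1.

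Of the genes for cadherin trafficking, glycosylation and shedding, 8 of 9 were measured, and none passed in E1KD against NMuMG or in L1P or L2P against E1KD. Mgat3, whose product adds a bisecting sugar to N-glycans, rose in M1P against E1KD (1.18), and array 3 alone gave 0.43 (adjusted p = 0.524). Of the 9 beta-catenin destruction complex genes, which mark beta-catenin for degradation, none passed in E1KD (median 0.01). In M1P against E1KD, Apc (-2.50), Gsk3b (-1.74) and Amer1 (-0.47) fell and Axin2 rose (0.55), where 27.6% of all genes passed. With array 3 alone Gsk3b differed by -1.23. The other array 3 differences were -1.30 for Apc, -0.19 for Amer1 and 0.60 for Axin2.

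Of 13 measured of 14 TCF target genes, Ccnd1, which encodes cyclin D1, rose in E1KD by 0.61 ± 0.11 (adjusted p = 0.00258, limma). The other 12 did not pass (median 0.07), where 9.49% of all genes passed. Between E1KD and M1P Sp5 rose by 0.62, as did Axin2 above, and array 3 alone gave 0.27 for Sp5 (adjusted p = 0.536). In L2P against E1KD, Rnf43, a Wnt feedback inhibitor, fell by 1.54 (adjusted p = 0.0456), a call lost without E1KD or L2P array 2 or 3 (adjusted p from 0.149 to 0.208). Between L2P and L1P, limma called no gene of any of these 9 context lists.

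Across the whole series of lines, from NMuMG to L2P, 7 of the 98 genes in these context lists rose and 12 fell, 19.4% against 14.2% of all genes. Snai2 (3.82), Twist2 (1.98) and Ccnd1 (0.93) rose, and Cdh17 (-2.86), Ctnnbip1 (-1.84) and Cdh13 (-0.82) fell. These 6 calls held whichever single array of the 2 lines was left out. Each of the other calls was lost without at least 1 array. Of those, Pcdh7 (1.88), Pcdh9 (0.94), Vcl (0.94) and the TCF target Cd44 (0.83) rose. Tcf7l2, itself a TCF factor, fell by 1.21, the destruction complex genes Btrc and Axin1 by 0.78 and 0.55, and the recycling gene Rab11a by 0.60. Celsr2 (-0.93) and Pcdh10 (-0.50) fell, as did the desmosomal genes given above. With the mean of their probe sets Rab11a (adjusted p = 0.997), Dsc3 (0.241), Cd44 (0.148), Pcdh9 (0.0969), Btrc (0.0958) and Axin1 (0.0879) did not pass.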

How the data were processed

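The deposited table holds log2 signals of 45101 probe sets on 15 arrays, from 1.53 to 14.68, and no further scaling was applied. The submitters' processing notes name the Affymetrix Expression Console, MAS5 and RMA as the authors' tools. Versions, and which tool gave these values, were not given in the sources used. Signals were amplified from the 3' end, per the labels' protocols. No detection calls were used, so a dim signal was not told from none.

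Symbols came from the platform annotation and were updated through Entrez identifiers with a RefSeq table (34741 of 34945 single-symbol probe sets matched). Each gene is its probe set with the highest mean. The 15 arrays were modelled together in limma 3.58.1 (R 4.3.3), each line having its own coefficient (10 residual and 2.98 prior degrees of freedom), with two-sided moderated tests, and tested on simulated data. Arrays have no read depth, and their number limits the precision.

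The members and the gene lists were chosen with earlier results of these data known. The text names the 9 members, Pcbp1, cell type markers, the 3 genes most like each member and, for the comparisons with E1KD, E1KD with NMuMG and L2P with NMuMG, the called genes of each list (up to 4 per direction). Alternatives covered probe set choice, scaling, a filter, array weights, fewer lines, a replicate block and arrays left out.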

Additional observations from a re-analysis of the deposited data

How the results depend on the processing

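The fall of Cdh16 was called in all 18 alternative settings for E1KD with NMuMG, L1P with E1KD, L2P with E1KD and L2P with NMuMG. Members called in M1P with E1KD (2) became 4 with the mean of all probe sets, 4 with array weights and 0 with only the compared lines in the model or without M1P arrays 1 and 2. Leaving out single arrays gave 1 to 4 there and 1 to 2 in E1KD with NMuMG (2). L2P with E1KD (1) gave 3 with only the compared lines and 4 with array weights. L2P with NMuMG (1) gave 4 with array weights, and 2 with only the compared lines, without M1P arrays 1 and 2, and with M1P left out of the model, a setting chosen after seeing the data. The F test (2) gave 7 with array weights and 2 to 5 without single arrays, the 5 without M1P array 2. Over all genes, 5015 were called in M1P with E1KD, and fewer without M1P arrays 1 and 2. All lines share 1 estimate of spread per gene, so the M1P arrays also enter the tests between other lines. Without those M1P arrays more genes were called in E1KD with NMuMG and L2P with NMuMG. The same was so for L1P and L2P with E1KD. The causes were not tested.

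Whether replicate numbers pair the samples was not settled. Deviations of same-numbered arrays from their line means correlated from -0.50 to 0.75, and arrays with different numbers were not compared. With the number as a replicate block, 4 members were called in M1P with E1KD and 2 in L2P with NMuMG, where Cdh1 passed (adjusted p = 0.0473, limma). Direction reversed, with a call in the main or the alternative setting, in the following cases. Vezt in E1KD with NMuMG reversed with the most variable probe set (0.57) and the mean of all probe sets (0.067). Rab11a in L2P with NMuMG reversed with the most variable probe set (0.59, against -0.60). Ctnnd1 in L2P with M1P reversed with array weights (-0.38, against 0.13). Direction also changed in 57 other results of a gene in 1 comparison and setting, with no call in either setting.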

Other observations

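Genes beside Cdh16 and Cdh2 were examined, a check chosen after seeing the data, using gene order in the RefSeq table for GRCm38.p6. Of the 10 measured genes nearest to Cdh16, 1 rose in E1KD against NMuMG (Dync1li2, 0.91) and none fell, while limma called none of the 10 in L2P against NMuMG. Cdh2 lies beside a cluster of desmosomal cadherin genes. Of the 10 measured genes nearest to it, limma called none in E1KD against NMuMG, and 1 fell in L2P against NMuMG (Dsc3, -0.51).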
